A study of Mus musculus with 6 samples.

Results

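A set of 9 interferon signalling genes was followed in the gastrocnemius muscle of mice with and without a C26 tumor. They are the receptor chains Ifnar1 and Ifngr1, the transcription factors Stat2, Irf1, Irf2, Irf3, Irf7 and Irf9, and the feedback inhibitor Socs1. They were taken by symbol from a list of names that was drawn up with earlier results of these data known, and all 9 were listed among the 13363 genes of the RNA sequencing table. C26 is a mouse colon carcinoma line that causes wasting. The C26 group was 3 muscles of male BALB/c mice that had received these cells under the skin of the flank. The Control group was 3 muscles of male BALB/c mice without a tumor. The mice were bought at 6 weeks of age and acclimated for 1 week, and no other genotype or agent is named for either group. Whole muscle was sequenced, so a transcript can come from the fibres or from other cells in the tissue.

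Type I interferons bind a receptor made of IFNAR1 and IFNAR2, and interferon gamma binds one made of IFNGR1 and IFNGR2. The JAK kinases on these receptors phosphorylate STAT proteins. STAT2 and IRF9 are subunits of ISGF3, which binds interferon-stimulated response elements (ISRE), while STAT dimers bind gamma-activated sites (GAS). IRF3 and IRF7 switch on the interferon genes after nucleic acids have been sensed, IRF1 activates and IRF2 mostly represses ISRE-bearing genes, and SOCS1 blocks the JAK kinases. Irf1, Irf7, Irf9, Stat2 and Socs1 are themselves induced by interferon, whereas Irf3 is largely constitutive.

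The elements that STAT and IRF proteins bind are shown first, where they stand in the promoters of the members. The ISRE core was searched as GAAANNGAAA and the GAS core as TTCNNNGAA, on both strands, in RefSeq promoter windows of 300 bases of GRCm38.p6, which run from 250 bases before to 50 bases after a transcription start. All 9 genes had a window. An ISRE core was found for Stat2, Irf2 and Socs1 (3 of 9) and a GAS core for Irf1, Irf2 and Ifnar1 (3 of 9). Over the 27025 genes with a window the shares were 3.99% for the ISRE core and 9.55% for the GAS core. The Socs1 window held 2 ISRE cores that overlap each other, and Irf2 held 1 core of each kind. The windows of Irf3, Irf7, Irf9 and Ifngr1 had neither string of letters, which says nothing of binding elsewhere. The 4 stretches below are given 5′ to 3′ on the strand of the gene, with the matched cores in capitals.
Socs1, chr16:10785579-10785644, minus strand, ISRE cores 83 to 74 and 77 to 68 bases before the start: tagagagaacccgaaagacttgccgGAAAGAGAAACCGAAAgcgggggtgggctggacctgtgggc
Stat2, chr10:128270251-128270310, plus strand, ISRE core on the opposite strand 222 to 213 bases before the start: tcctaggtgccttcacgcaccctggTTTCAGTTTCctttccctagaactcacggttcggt
Irf1, chr11:53769899-53769957, plus strand, GAS core 90 to 82 bases before the start: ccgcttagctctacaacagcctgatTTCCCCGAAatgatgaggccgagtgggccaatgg
Irf2, chr8:46739495-46739554, plus strand, ISRE core 241 to 232 and GAS core 224 to 216 bases before the start: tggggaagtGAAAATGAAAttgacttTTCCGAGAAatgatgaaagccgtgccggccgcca
The Stat2 window also overlaps the gene Apof and the Irf2 window the gene Gm16675, so those letters are not private to the member.

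The expression values are FPKM, fragment numbers divided by transcript length and by library size, estimated by the authors with RSEM. FPKM correct for length and can be compared between genes. Differences between groups are given as log2 of TPM plus 1, after TPM had been scaled by TMM factors, so the change of a gene near 0 is understated. A gene was called when limma gave a Benjamini-Hochberg adjusted p under 0.05 over all 13363 genes. Summed FPKM ran from 531061 to 585169 in C26 and from 626992 to 688300 in control muscles. Read depth is unknown. The labels number the muscles without saying that each came from a separate mouse, so p-values measure the spread between these 6 samples. Muscle fibre markers were abundant in every library, and their summed TPM was lower in each C26 muscle (116000 to 185000) than in any control (191000 to 214000).

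The control muscles differed among themselves. Control replicate 3 had a summed TPM of 1100 over 9 leukocyte markers, against 41.6 and 26.1 in the other controls and 12.8 to 25.2 in C26 muscles. Of 8 B cell markers 2 were listed, Cd79b and Cd37, and they summed to 358 in control replicate 3 and to 1.2 to 3.76 in the other 5 muscles. Control replicate 1 had the highest summed TPM over 35 listed target genes of ISGF3, 2020, against 598 and 428 in the other controls and 213 to 224 in C26 muscles. Fewer cells of a type and less RNA per cell cannot be told apart in these whole-muscle samples.

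Of the 9 genes, 5 were lower in C26 muscles, namely Irf7, Socs1, Irf1, Stat2 and Irf9, 1 was higher, namely Irf2, and 3 were not called, namely Irf3, Ifnar1 and Ifngr1. Over all genes 14.5% were called lower and 19.4% higher by the same rule. With a fold change above 4 in addition, 4 of the 9 were called lower, against 1.73% of all genes (1.77% were called higher). The count of 5 became 2 without C26 replicate 1, 2 without C26 replicate 2, 3 without C26 replicate 3 and 2 without moderation. The count of 4 became 1 without any 1 of the C26 replicates or control replicate 1, 2 without control replicate 3 and 1 without moderation. Every C26 value lay below every control value for 5 genes and above for 1, against 26.5% and 27% of all genes, and the groups overlapped for 3. The median log2 difference of the 9 genes was -1.69, and that of all genes was -0.05. The 5 genes called lower are known to be induced by interferon. The 3 that were not called are chains of different receptors, Ifnar1 and Ifngr1, and the constitutive factor Irf3. The 9 genes were chosen with earlier results of these data known, so this is a description.

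**Figure D1:**
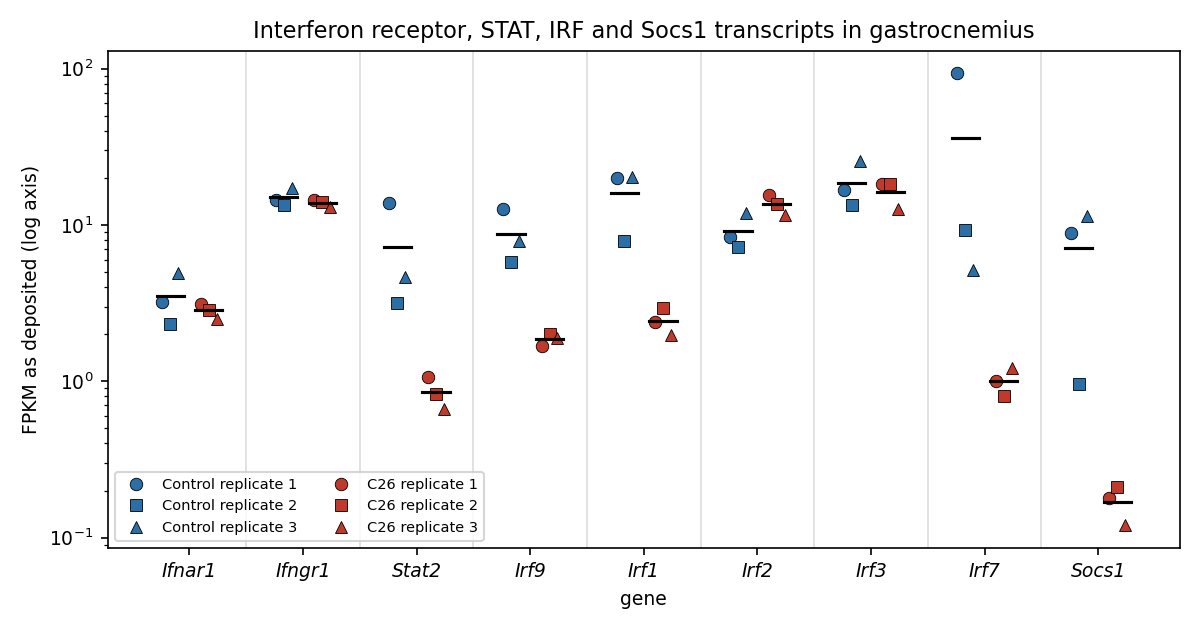
FPKM of the 9 genes in each muscle on a log axis, with blue symbols for control and red for C26 muscles, the symbol shape giving the replicate and the black bar the group mean. For Stat2, Irf9, Irf1, Irf7 and Socs1 the 3 C26 muscles lie below all control muscles, and the control muscles are spread more widely, up to 18.2-fold for Irf7.

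The receptor chains came first in the pathway and did not separate the groups. Ifnar1 (Entrez 15975, chromosome 16, 91485032 to 91510523 of GRCm38.p6), the chain that with IFNAR2 binds type I interferon, was at 3.14, 2.87 and 2.50 FPKM in C26 replicates 1, 2 and 3 and at 3.22, 2.33 and 4.91 FPKM in control replicates 1, 2 and 3. The groups overlapped, with the highest and the lowest value both in control muscles. Its log2 difference was -0.02 (95% interval -0.52 to 0.47, limma adjusted p = 0.94). Ifngr1 (Entrez 15979, chromosome 10, 19591949 to 19610229), the ligand-binding chain for interferon gamma, was at 14.37, 13.94 and 12.97 FPKM in C26 and 14.50, 13.33 and 17.25 FPKM in control muscles. Its log2 difference of 0.09 had a 95% interval of -0.21 to 0.40 (limma adjusted p = 0.589), the narrowest of the 9. For both chains the sign turned under other scalings of the libraries: Ifnar1 was at 0.16 with quantile normalization and Ifngr1 at -0.18, neither called.

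The partner chains were called. Ifnar2 fell by 1.14 on the log2 scale (limma adjusted p = 0.00839), from 14.25, 8.03 and 12.27 FPKM in control to 4.49, 4.35 and 3.46 FPKM in C26 muscles. Ifngr2 fell by 0.91 (limma adjusted p = 0.0194), with 51.76, 51.42 and 51.56 FPKM in control and 23.78, 18.67 and 28.44 FPKM in C26 muscles. Il10rb, a chain shared by the interferon lambda and interleukin 10 receptors, fell by 1.30 (limma adjusted p = 0.0127). Tyk2, the kinase on IFNAR1, fell by 0.89 (limma adjusted p = 0.0224). Jak1 had a log2 difference of 0.08 (adjusted p = 0.651) and Jak2 of -0.11 (adjusted p = 0.681), and neither was called by limma. Thus 4 of the 8 listed receptor and kinase genes were called lower and 0 higher, with 0 higher also at an unadjusted p under 0.05, beside 14.5% lower and 19.4% higher of all genes. The count of 4 became 1 without C26 replicate 1, 2 without control replicate 1 and 1 without moderation.

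Stat2 (Entrez 20847, chromosome 10, 128270498 to 128292853) encodes the STAT that is particular to ISGF3. Control replicates 1, 2 and 3 had 13.85, 3.15 and 4.61 FPKM, and the C26 replicates had 1.06, 0.83 and 0.66 FPKM. The lowest control was well above the highest C26 muscle, while the controls ranged 4.4-fold among themselves. Stat2 averaged 7.20 ± 5.80 FPKM in control and 0.85 ± 0.20 FPKM in C26 muscles (SD, n = 3 each). It fell by 2.02 on the log2 scale (SE 0.46, 95% interval -3.12 to -0.93, limma adjusted p = 0.0184), a 4.07-fold decrease. The call was lost when C26 replicate 1 (adjusted p = 0.0588) or C26 replicate 2 (adjusted p = 0.0598) was left out. Part of the Stat2 locus overlaps Apof, and counting by strand is not stated in the sources used here.

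Irf9 (Entrez 16391, chromosome 14, 55603985 to 55610030) encodes the DNA-binding subunit of ISGF3. It was at 12.56, 5.83 and 7.88 FPKM in control and at 1.67, 2.01 and 1.88 FPKM in C26 muscles. The C26 values were close together and the groups were clearly apart. From 8.76 ± 3.45 to 1.85 ± 0.17 FPKM (SD, n = 3 each), Irf9 fell by 1.69 on the log2 scale (SE 0.24, 95% interval -2.27 to -1.10, limma adjusted p = 0.00597), a 3.22-fold decrease. Irf9 and Irf1 were the members that stayed called whichever single muscle was left out, with limma adjusted p-values for Irf9 of 0.00864 to 0.0319.

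Among the other STAT genes, Stat3, the STAT of the interleukin 6 receptors, went the other way from Stat2, from 12.31, 8.56 and 12.10 FPKM in control to 14.46, 13.91 and 20.04 FPKM in C26 muscles, and rose by 0.74 (limma adjusted p = 0.0382), though this call was lost under 6 of 11 other settings and in 5 of the 6 fits with 1 muscle left out. Stat5a, Stat5b and Stat6 had log2 differences of 0.12, 0.45 and -0.47 (limma adjusted p = 0.662, 0.0875 and 0.143). Of these 5 STAT genes, Stat2 included, 1 was lower and 1 higher, near the 14.5% lower and 19.4% higher of all genes.

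Irf1 (Entrez 16362, chromosome 11, 53770014 to 53778374), an activator induced through the GAS by STAT dimers, was at 20.03, 7.89 and 20.34 FPKM in control replicates 1, 2 and 3. In C26 replicates 1, 2 and 3 it was at 2.40, 2.95 and 1.97 FPKM. Control replicates 1 and 3 were nearly equal, and replicate 2 was the lowest control yet above every C26 muscle. The means were 16.1 ± 7.10 and 2.44 ± 0.49 FPKM (SD, n = 3 each). Irf1 fell by 2.16 on the log2 scale (SE 0.32, 95% interval -2.93 to -1.40, limma adjusted p = 0.00632), a 4.48-fold decrease, and stayed called without any single muscle, at adjusted p-values of 0.00432 to 0.0327.

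Irf2 (Entrez 16363, chromosome 8, 46739745 to 46847458), the repressor that competes with IRF1 for the ISRE, was the member that rose. It was at 15.52, 13.62 and 11.54 FPKM in C26 and at 8.43, 7.17 and 11.94 FPKM in control muscles. In FPKM as deposited, C26 replicate 3 was just below control replicate 3, and after scaling every C26 muscle was above every control. The log2 difference was 0.76 (SE 0.18, 95% interval 0.32 to 1.2, limma adjusted p = 0.0222), a 1.69-fold increase. This call was weak: it was lost in limma with FPKM as deposited (0.53, adjusted p = 0.0944), with quantile normalization (0.54, adjusted p = 0.0692), under 4 further settings and with 4 of the 6 muscles left out in turn (C26 replicate 1 or 2, or control replicate 1 or 2). The direction stayed positive throughout these fits. In FPKM as deposited the median gene had a log2 difference of -0.14, and relative to it Irf2 stood at 0.68.

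Irf3 (Entrez 54131, chromosome 7, 44997648 to 45002848), the constitutive factor activated by TBK1, was at 18.29, 18.19 and 12.56 FPKM in C26 and 16.71, 13.37 and 25.51 FPKM in control muscles. The highest value was in control replicate 3 and the groups overlapped. Its log2 difference was 0.06 (SE 0.23, 95% interval -0.48 to 0.61, limma adjusted p = 0.839). The sign turned to -0.14 with FPKM as deposited and -0.25 with quantile normalization, neither called.

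Irf7 (Entrez 54123, chromosome 7, 141263183 to 141266499), the inducible partner of IRF3 in switching on type I interferon genes, had the largest decrease of the 9 on the log2 scale with 1 added, though without control replicate 1 that of Socs1 was larger (-2.37 against -2.08), as it was with a pseudocount of 0.1 (-4.19 against -3.75). It was at 93.18, 9.26 and 5.11 FPKM in control replicates 1, 2 and 3 and at 1.0, 0.81 and 1.22 FPKM in C26 replicates 1, 2 and 3. The highest control was 18.2 times the lowest, and even the lowest was above every C26 muscle. The control mean of 35.9 ± 49.7 FPKM therefore rests on replicate 1, and the C26 mean was 1.01 ± 0.21 FPKM (SD, n = 3 each). Irf7 fell by 3.27 on the log2 scale (SE 0.97, 95% interval -5.60 to -0.94, limma adjusted p = 0.0426), a 9.64-fold decrease. Without control replicate 1 the log2 difference was -2.08, and it was still called (adjusted p = 0.0281). The call was lost without any 1 of the C26 replicates (adjusted p = 0.0748 to 0.118) or without control replicate 2 (adjusted p = 0.069), and also with FPKM as deposited (adjusted p = 0.0533) and quantile normalization (adjusted p = 0.0648).

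Among the other IRF genes, Irf4, Irf5 and Irf8, which are prominent in leukocytes, were highest in control replicate 3, at 3.09, 12.83 and 36.76 FPKM, against 0.29 to 3.48 FPKM in the other controls and 0.32 to 2.53 FPKM in C26 muscles. Their log2 differences were -0.45, -1.32 and -1.26 and limma called none of them (adjusted p = 0.509, 0.138 and 0.312). The same muscle had the high leukocyte and B cell markers, and their part in these values was not tested. The IRF2-binding protein genes Irf2bp1, Irf2bp2 and Irf2bpl had log2 differences between -0.29 and 0.06. Of the 6 listed IRF-list genes that are not among the 9, limma called 0, with 0 also at an unadjusted p under 0.05, and with 14.5% lower and 19.4% higher of all genes a count of 0 of 6 cannot be told from those shares.

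Socs1 (Entrez 12703, chromosome 16, 10783808 to 10785536) encodes the inhibitor that interferon induces against its own receptor kinases. It was at 8.90, 0.96 and 11.36 FPKM in control replicates 1, 2 and 3 and at 0.18, 0.21 and 0.12 FPKM in C26 muscles. Control replicate 2 was 11.8-fold below replicate 3, and it still exceeded the highest C26 muscle. The means were 7.07 ± 5.44 and 0.17 ± 0.05 FPKM (SD, n = 3 each). Socs1 fell by 2.74 on the log2 scale (SE 0.69, 95% interval -4.39 to -1.08, limma adjusted p = 0.0259), a 6.68-fold decrease on the scale with 1 added. With a pseudocount of 0.1 the log2 difference was -4.19, since the C26 values lie below 1. The call was lost in 5 of the 6 fits with 1 muscle left out (adjusted p up to 0.0899) and kept without control replicate 2 (adjusted p = 0.00432).

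**Figure D2:**
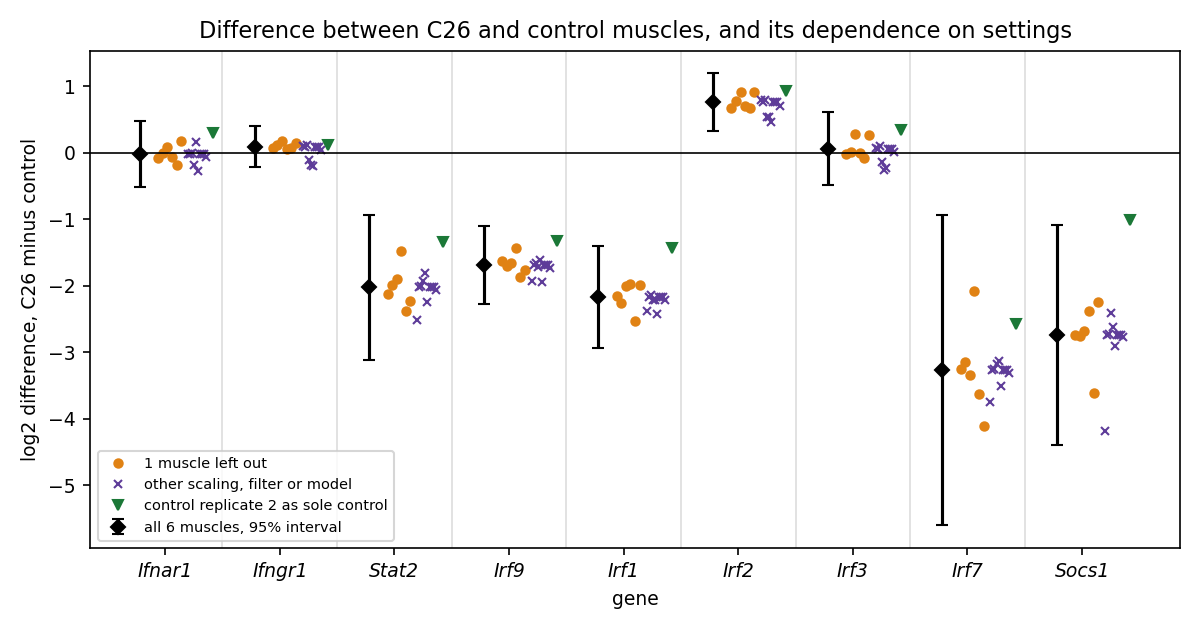
The log2 difference, C26 minus control, of each gene, with its 95% interval over all 6 muscles (black), with 1 muscle left out (orange), under other scalings, filters or models (purple) and with control replicate 2 as the sole control (green). The 5 lower genes stay below 0 and Irf2 above 0 in each of these fits, whereas Ifnar1, Ifngr1 and Irf3 lie on either side of 0.

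Of the 17 listed inhibitors of JAK-STAT signalling, 2 were lower, Socs1 and Usp18, 4 were higher, Pias4, Ptpn2, Ptpn11 and Socs6, and 11 were not called. Of all genes 14.5% were lower and 19.4% higher, so these counts are near the share of all genes. The 2 lower became 0 without C26 replicate 1, 4 without control replicate 2, 1 without any 1 of the other muscles and 0 without moderation, and the 4 higher became 2 without control replicate 1. Usp18, which removes ISG15 and displaces JAK1 from IFNAR2, fell by 2.35 on the log2 scale, from 13.16, 3.48 and 2.89 to 0.41, 0.64 and 0.28 FPKM (limma adjusted p = 0.0158). Pias4, a SUMO ligase that binds STAT proteins, rose by 1.56 (limma adjusted p = 0.00509), from 12.08, 9.92 and 12.79 to 35.73, 36.69 and 21.09 FPKM. The phosphatase genes Ptpn2 and Ptpn11 rose by 1.10 (limma adjusted p = 0.00758) and 1.04 (limma adjusted p = 0.012). Socs3 and Cish, which cytokines other than interferon also induce, had log2 differences of -0.29 (adjusted p = 0.717) and -0.99 (adjusted p = 0.17), and limma called neither. Ptpn6, a phosphatase of blood cells, was at 49.86 FPKM in control replicate 3 and at 0.22 to 1.36 FPKM in the other muscles.

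**Figure D3:**
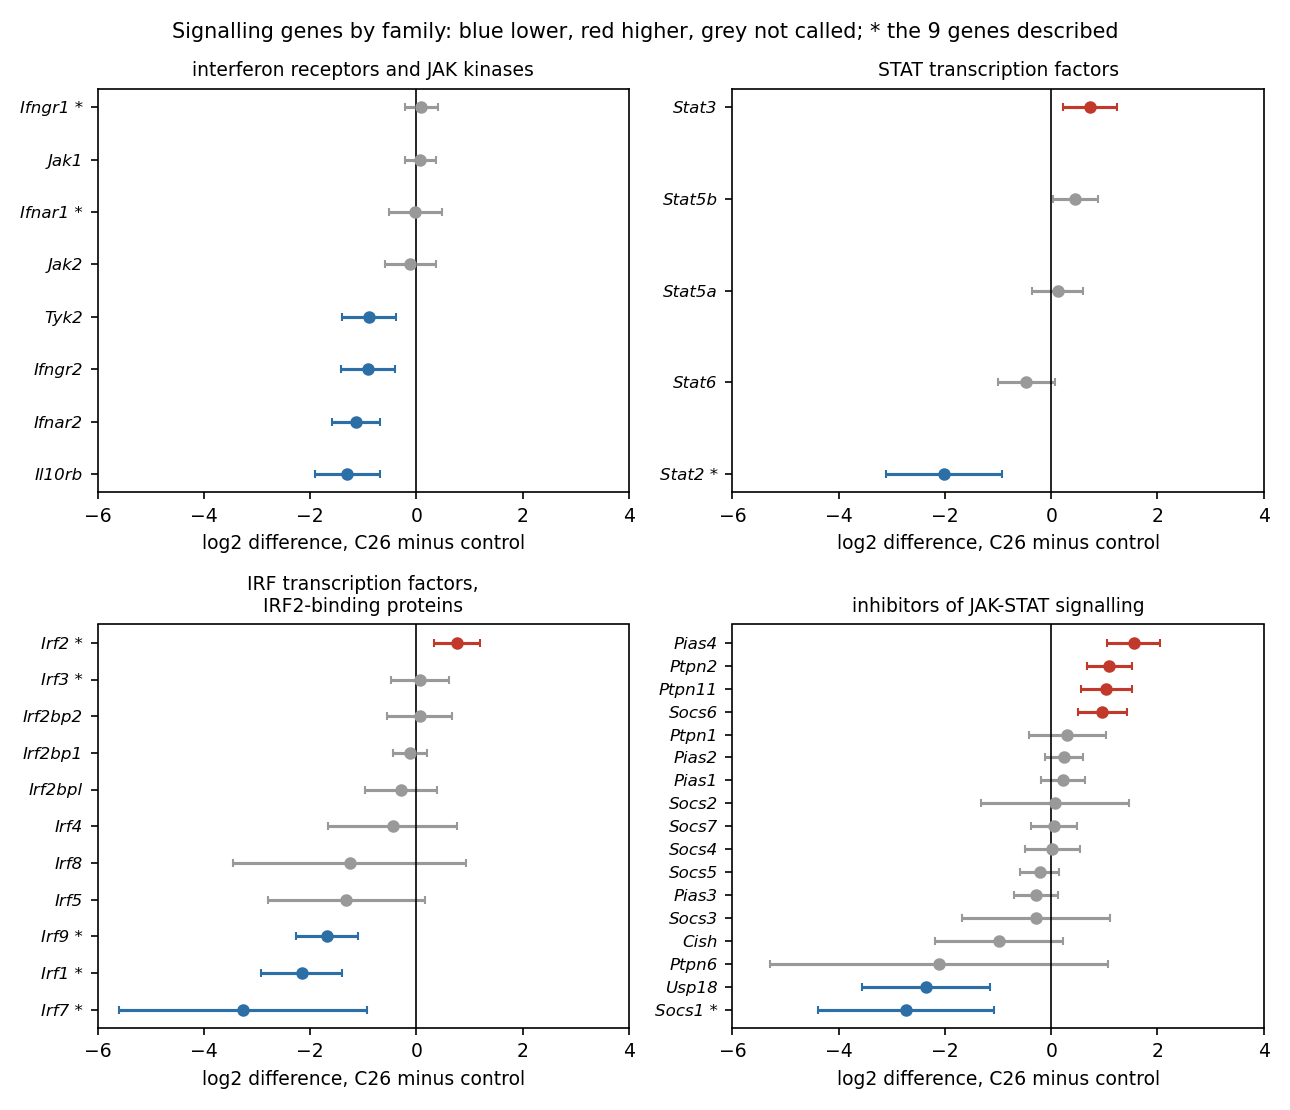
The log2 difference, C26 minus control, with its 95% interval, of the listed receptor and kinase, STAT, IRF and inhibitor genes, with an asterisk on the 9 genes described. Genes called lower (blue) include Stat2, Irf1, Irf7 and Irf9, and Socs1 and Usp18, genes called higher (red) include Irf2 and Stat3, and Irf8 and Ptpn6 have wide intervals.

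Upstream of IRF3 and IRF7, 6 of the 24 listed genes of nucleic acid sensing were higher, 6 lower and 12 not called, beside 19.4% higher and 14.5% lower of all genes. The higher count is near its share and the lower count somewhat above its share, and neither was tested against it. The 6 lower became 1, 2 and 3 without C26 replicates 1, 2 and 3, 3 without control replicate 1, 2 with quantile normalization and 1 without moderation. The 6 higher became 3 without C26 replicate 1 or 2 or control replicate 1 or 2. Ticam1 rose by 1.77 on the log2 scale (limma adjusted p = 0.011), Mavs by 1.32 (limma adjusted p = 0.00742) and Tbk1 by 0.83 (limma adjusted p = 0.0108). These encode the adaptors of TLR3 and of the RIG-I-like receptors and the kinase of IRF3. The sensors Zbp1 and Ddx58 fell by 2.65 (limma adjusted p = 0.043) and 1.74 (limma adjusted p = 0.00849), and Dhx58, a regulator of the RIG-I-like receptors, fell by 1.68 (limma adjusted p = 0.0474). Zbp1, Ddx58 and Dhx58 are also known as interferon-induced genes. Of 10 interferon genes looked up by symbol, such as Ifnb1 and Ifng, 0 matched one of the 13363 genes, so their levels were not analysed here. All 13363 genes were above 0 FPKM in all 6 muscles, so a gene at 0 in any muscle may have been left out. Also not listed were, for example, the ISGF3 targets Mx1, Mx2 and Oas1b and the interferon gamma targets Cxcl9, Cxcl10 and Cxcl11.

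Downstream, the listed targets of ISGF3 had 17 of 35 genes lower and 0 higher, beside 14.5% and 19.4% of all genes, with 28 lower and 0 higher at an unadjusted p under 0.05 in limma. Every C26 muscle was below every control for 30 of the 35, beside 26.5% of all genes, and the median log2 difference was -1.69. The count of 17 became 5 without C26 replicate 1, 7 without C26 replicate 2, 11 without control replicate 2, 28 without control replicate 3 and 4 without moderation. Ifi27l2a fell by 4.05 (limma adjusted p = 0.00808), Isg15, the ubiquitin-like modifier, by 3.39 (limma adjusted p = 0.0341) and Ifit3b by 2.85 (limma adjusted p = 0.0302). Ifit3b is nearly identical to Ifit3, so reads may be divided between the pair. The listed targets of interferon gamma and IRF1 had 18 of 29 genes lower and 0 higher, beside the same 14.5% and 19.4% of all genes, with 23 lower and 0 higher at an unadjusted p under 0.05, and a median of -1.99. The count of 18 became 4 without C26 replicate 1, 8 without C26 replicate 2, 9 without control replicate 1 and 1 without moderation. Among them the guanylate-binding protein gene Gbp3 fell by 3.32 (limma adjusted p = 0.0174) and the immunoproteasome gene Psmb8 by 2.80 (limma adjusted p = 0.0127). The GTPase gene Tgtp2, which may share reads with Tgtp1, fell by 2.52 (limma adjusted p = 0.0164). These lists were written with earlier results of these data known and are not independent evidence of a direction. An ISRE core was found in the promoter windows of 14 of 28 ISGF3 targets with a window (50%) and 12 of 26 targets of interferon gamma and IRF1 (46.2%), and a GAS core in 8 of 28 (28.6%) and 8 of 26 (30.8%).

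Within the control group the members followed more than 1 order. Irf7, Stat2 and Irf9 were highest in control replicate 1, as were the summed ISGF3 targets. On the log2 scale and relative to the C26 mean, Irf7 was 5.64, 2.57 and 1.58 above it in control replicates 1, 2 and 3. The summed ISGF3 targets were 3.19, 1.44 and 0.96 above it in the same order. Irf1 and Socs1 were instead about as high in control replicate 3 as in replicate 1, at 2.54, 1.43 and 2.52 for Irf1 and 3.46, 1.01 and 3.74 for Socs1. The summed targets of interferon gamma and IRF1 were likewise at 2.12, 0.99 and 2.07. That sum is weighted to abundant genes such as B2m (291.77, 107.14 and 273.31 FPKM) and H2-K1 (199.49, 83.84 and 307.75 FPKM). Less abundant genes of the list did not share 1 order. Psmb8 was at 24.22, 5.56 and 31.32 FPKM, whereas Gbp3 was at 33.82, 5.18 and 3.69 FPKM, the order of Irf7. Leukocyte markers had another pattern, at 1.28, 0.63 and 5.97, and B cell markers were at 0.61, -0.42 and 6.93. Fat cell markers had the order of Irf7 and of the ISGF3 targets, at 3.07, 2.26 and 0.12, and their part in these values was not tested. In control replicate 3 that sum rests mostly on Fabp4. Every C26 muscle was below every control for 7 of the 8 fat cell markers, beside 26.5% of all genes, and Cd36 went the other way. Adipoq was at 11.54 FPKM in control replicate 3 and at most 3.11 FPKM in C26 muscles. With 3 controls these orders are a description and were not tested.

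**Figure D4:**
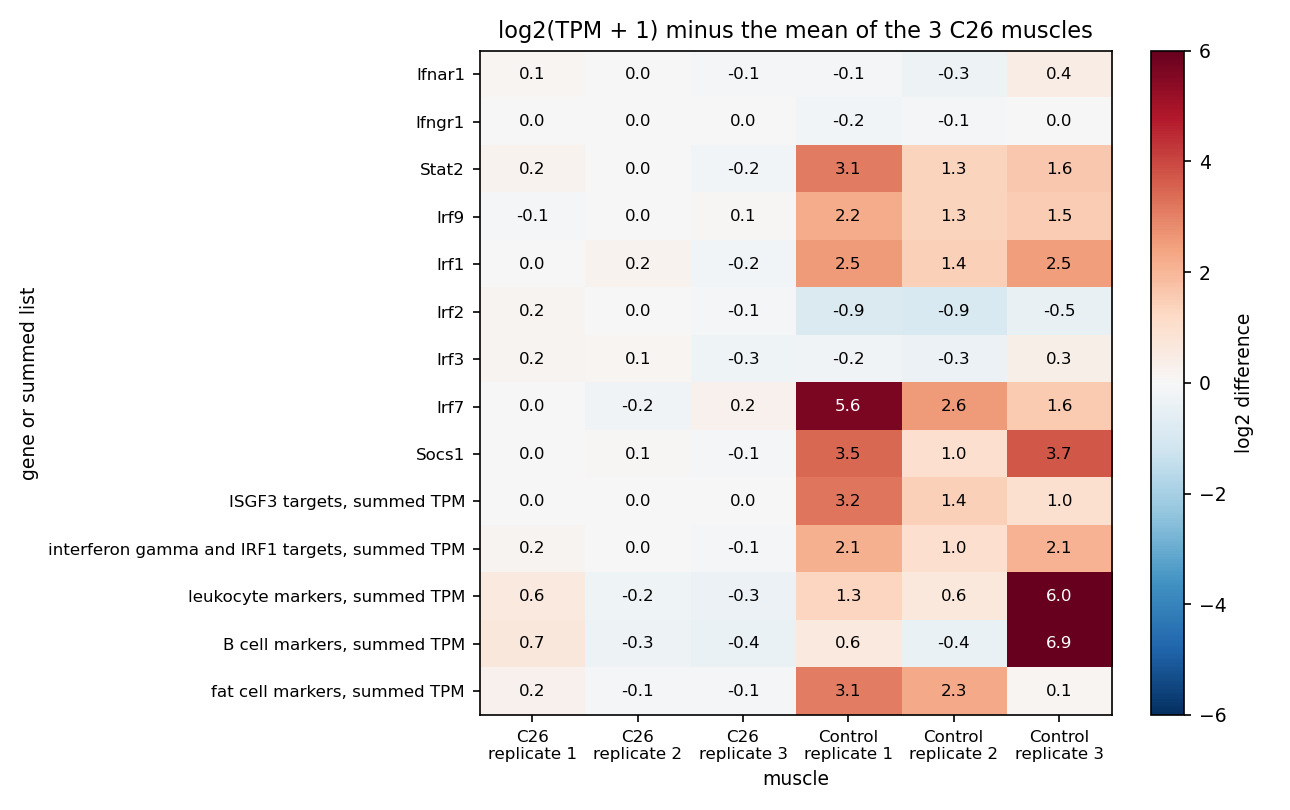
Each muscle's log2(TPM + 1) minus the mean of the 3 C26 muscles, for the 9 genes and for 5 summed gene lists, with red for higher and blue for lower on a colour scale that ends at 6. The 3 C26 columns are near 0 for the 9 genes, control replicate 1 is highest for Irf7, the ISGF3 targets and the fat cell markers, and control replicate 3 stands out for the leukocyte and B cell markers.

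The calls were therefore also computed without the controls in doubt. Without control replicate 3, the muscle with the leukocyte markers, the log2 differences were -2.23 for Stat2, -1.77 for Irf9, -1.99 for Irf1 and -4.11 for Irf7, each still called by limma (adjusted p = 0.0271, 0.0119, 0.0148 and 0.022), and -2.24 for Socs1, no longer called (adjusted p = 0.0552). Without control replicate 1 they were -1.48 for Stat2, -1.43 for Irf9, -1.97 for Irf1 and -2.08 for Irf7, each still called (adjusted p = 0.0215, 0.0183, 0.0315 and 0.0281), and -2.37 for Socs1, not called (adjusted p = 0.0899). With control replicate 2 as the sole control the 5 differences kept their sign, at -1.34 for Stat2, -1.33 for Irf9, -1.43 for Irf1, -2.57 for Irf7 and -1.01 for Socs1, and none was called (adjusted p = 0.0507 to 0.0895). In that fit the lone control is assumed to vary like the C26 muscles, and 69 genes were called lower over the whole table.

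Ratios of pairs of members within a muscle are not moved by a factor that scales a whole library, though quantile normalization, which is no such factor, can move them. These pairs were chosen with the values known. Irf1 stood to its antagonist Irf2 as 0.155, 0.217 and 0.171 to 1 in C26 replicates 1, 2 and 3, and as 2.38, 1.10 and 1.70 to 1 in control replicates 1, 2 and 3. Irf1 thus exceeded Irf2 in all 3 control muscles and was below it in all 3 C26 muscles. The inducible Irf7 stood to the constitutive Irf3 as 0.0547, 0.0445 and 0.0971 in C26 and as 5.58, 0.693 and 0.20 in control muscles. Socs1 stood to Ifngr1 as 0.0125, 0.0151 and 0.00925 in C26 and as 0.614, 0.072 and 0.659 in control muscles. The geometric means differed on the log2 scale by -3.20, -3.89 and -4.68 for the 3 ratios. These differences were not tested.

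By mean FPKM the order of the genes in control muscles was Irf7 (35.9), Irf3 (18.5), Irf1 (16.1), Ifngr1 (15.0), Irf2 (9.18), Irf9 (8.76), Stat2 (7.20), Socs1 (7.07) and Ifnar1 (3.49). The first place of Irf7 rests on control replicate 1, and in control replicates 2 and 3 it was below Irf3 and Ifngr1. Neighbours in this order overlapped in their values, apart from Ifngr1 and Irf2. In C26 muscles the order was Irf3 (16.3), Ifngr1 (13.8), Irf2 (13.6), Ifnar1 (2.84), Irf1 (2.44), Irf9 (1.85), Irf7 (1.01), Stat2 (0.85) and Socs1 (0.17). There the values of neighbours did not overlap between Irf2 and Ifnar1, between Irf9 and Irf7 and between Stat2 and Socs1. Irf3, Ifngr1 and Irf2 made up the upper tier in C26 muscles, and the 5 genes called lower filled the last places, at most 2.95 FPKM in any C26 muscle.

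Other cell types were checked by their markers. Neutrophil markers summed to 12.4 to 14.1 TPM in C26 and 1.96 to 4.71 TPM in control muscles, with S100a8 and S100a9 higher in C26 muscles (2 of 6 listed, beside 19.4% of all genes). In C26 muscles the sum rests mostly on these 2 genes. The other 4 listed were not called, with log2 differences from -0.27 (Cxcr2) to 0.10 (Csf3r). Fat cell markers were lower for 6 of 8, at a summed TPM of 690 to 891 in C26 and of 6330, 3620 and 818 in control replicates 1, 2 and 3, and fibroblast markers for 5 of 10. The fat cell sum of control replicate 3 lay within the C26 range and rests mostly on Fabp4 (443.04 FPKM there). For 7 of the 8 fat cell markers this muscle was above every C26 muscle. Leukocyte markers were lower for 1 of 9, T cell markers for 1 of 3 listed and endothelial markers for 2 of 10, while limma called 0 of 12 macrophage markers (2 higher and 2 lower at an unadjusted p under 0.05) and 0 of the 2 B cell markers. Macrophage markers ranged from 119 to 563 TPM in C26 and from 117 to 383 TPM in control muscles. The highest of these sums, in C26 replicate 2, rests mostly on Cd68, which was at 246.65 FPKM there, at 34.85 and 6.46 FPKM in the other C26 muscles and at 1.75 to 5.77 FPKM in control muscles. Muscle fibre markers were lower for 1 of 12, Mylpf, a myosin light chain gene (log2 difference -1.95, limma adjusted p = 0.0179), and satellite cell markers were lower for 1 of 5. Since 14.5% of all genes were lower, the leukocyte, T cell, endothelial, muscle fibre and satellite cell counts, of 1 or 2 genes each, cannot be told from that share. The part of these cells in the levels of the 9 genes was not tested.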

How the data were processed

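RNA of 3 C26 and 3 control gastrocnemius muscles was measured. The protocol text of the labels names this muscle but also speaks of infected THP-1 cells, a human line, and of another RNA kit and library protocol than the methods of the study. The tissue and organism labels are those of mouse muscle, and the genes listed are mouse genes. The authors removed rRNA, sequenced single-end reads, aligned them with Bowtie2 and deposited FPKM estimated by RSEM to 2 decimals under Entrez gene IDs. For its further work the study kept 1 transcript variant per gene, that with the highest level, and whether the deposited values were made so is not given in the sources used here. The submitters' processing notes list HISAT2 2.0.4, Bowtie2 2.2.5 and RSEM 1.2.12, and name another mouse build than the methods of the study, so coordinates here come from RefSeq for GRCm38.p6. Every one of the 13363 genes has an FPKM above 0 in all 6 muscles. A symbol was found for 13327 IDs and not for 36. No counts were used, depth is therefore unknown, and precision rests on the spread between muscles.

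FPKM were rescaled to a sum of 1e+06 (TPM), divided by unweighted TMM factors (30% of log ratios and 5% of levels trimmed, factors 0.9027 to 1.077), and log2-transformed after adding 1. Groups were compared per gene with limma 3.58.1 in R 4.3.3, with empirical Bayes moderation, two-sided, with Benjamini-Hochberg adjustment over all genes, and the fit was tested on simulated data. The fold criterion of 4 is that of the study. Figures used matplotlib 3.10.9.

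Groups and replicate numbers come from the sample labels. The 9 genes and the gene lists were chosen with earlier results of these data known. Named besides the 9 were the STAT, IRF, receptor and kinase genes, up to 3 called genes per direction with the largest change in each list, and the 3 genes whose profile was nearest to each called member. Some genes of the listed families are not reported here. Genes chosen after their values were seen are Socs3, Cish, Socs6 and Ptpn6. So were genes named for their part in a summed list, such as Cd68, Fabp4, Cd36, Adipoq, H2-K1, Csf3r and Cxcr2. Alternatives tried were scaling by quantile normalization, by TPM alone, by FPKM as deposited or by TPM without the 20 most abundant genes, a pseudocount of 0.1, keeping genes with a mean TPM of 1 or more, a replicate block, an intensity trend in the prior, no moderation and each muscle left out. Weighted TMM factors and control replicate 2 as the sole control were chosen after seeing the data. Promoter windows are those of RefSeq, and protein sequences were not analysed here.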

Additional observations from a re-analysis of the deposited data

How the results depend on the processing

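Directions of the 6 called genes were kept in every fit run (11 alternatives and 6 fits without 1 muscle). Log2 differences under an alternative, with limma adjusted p, are given where a call or a sign changed, and the cause was not tested. With FPKM as deposited they were -0.11 for Ifngr1, -0.14 for Irf3, 0.53 for Irf2 (0.0944) and -3.17 for Irf7 (0.0533). Quantile normalization gave 0.16 for Ifnar1, -0.18 for Ifngr1, -0.25 for Irf3, 0.54 for Irf2 (0.0692) and -3.13 for Irf7 (0.0648). Scaling without the 20 most abundant genes gave -0.20 for Ifngr1, -0.23 for Irf3 and 0.47 for Irf2 (0.105), and TPM without TMM gave 0.00491 for Ifnar1. The median gene stood at -0.14 with FPKM as deposited and at -0.23 without the 20 most abundant genes. Relative to it Irf2 was at 0.68 and 0.70. Without moderation Stat2 (-2.02, 0.0765), Irf2 (0.76, 0.0576), Irf7 (-3.27, 0.13) and Socs1 (-2.74, 0.0955) were not called. With control replicate 2 as the sole control, Ifnar1 was at 0.29 and Stat2 (-1.34, 0.087), Irf9 (-1.33, 0.0731), Irf1 (-1.43, 0.0805), Irf2 (0.94, 0.114), Irf7 (-2.57, 0.0507) and Socs1 (-1.01, 0.0895) were not called.

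Whether the replicate numbers pair the muscles is not settled here. Deviations from the group means of same-numbered muscles correlated at -0.0394, -0.0843 and -0.112, and no C26 muscle correlated best with its own number. With 3 muscles per group, each centred on the group mean, these correlations are tied to each other and cannot decide it. With the replicate number as a block, Irf2 (0.76, 0.0654) and Irf7 (-3.27, 0.0593) were not called, 1236 genes were lower, no STAT, IRF or other member gene was called higher (0), and 3 sensing genes were higher. Other counts under the block were within 1.5 times the main ones.

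The count of members called higher became 0 with FPKM as deposited, quantile normalization, scaling without the 20 most abundant genes, no moderation and a sole control, as did the STAT and IRF genes called higher. Members called lower were 2 without moderation and 0 with a sole control, and those also above a fold of 4 were 2 with FPKM as deposited, 2 with quantile normalization, 1 without moderation and 0 with a sole control. Over all genes, 3209 were lower and 1542 higher without the 20 most abundant genes, 1678 higher with FPKM as deposited, 959 lower and 1526 higher without moderation, and 69 lower and 34 higher with a sole control. Sensing genes called higher were 3 with FPKM as deposited and 3 without the 20 most abundant genes, and those lower were 2 with quantile normalization. ISGF3 targets called lower were 26 with a pseudocount of 0.1 and 9 with quantile normalization. Without moderation, called lower were 1 receptor or kinase gene, 0 STAT genes, 0 inhibitors, 1 sensing gene, 4 ISGF3 targets and 1 target of interferon gamma and IRF1. With a sole control, called lower were 3 ISGF3 targets, 2 targets of interferon gamma and IRF1 and 0 genes of the other signalling lists, and 0 inhibitors and 0 sensing genes were called higher.

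Without 1 muscle at a time, the log2 differences ranged from -0.18 to 0.18 for Ifnar1, -0.072 to 0.28 for Irf3, -2.37 to -1.48 for Stat2, 0.67 to 0.91 for Irf2, -4.11 to -2.08 for Irf7 and -3.61 to -2.24 for Socs1. Members called lower numbered 2 to 4, members called higher 0 to 1, and members lower with a fold above 4 numbered 1 to 3. All genes called lower numbered 669 to 2160 and all genes called higher 1131 to 3311. By list, genes called lower were 1 to 4 for receptors and kinases, 0 to 1 for STATs, 2 to 3 for IRFs, 0 to 4 for inhibitors, 1 to 6 for sensing, 5 to 28 for ISGF3 targets and 4 to 20 for targets of interferon gamma and IRF1. Genes called higher were 0 to 1 for STATs, 0 to 1 for IRFs, 2 to 5 for inhibitors and 3 to 7 for sensing. The lowest count of genes lower was without C26 replicate 1 and the count of 28 ISGF3 targets was without control replicate 3. Depth is unknown, so values under 1 FPKM, such as Socs1 in C26 muscles, have no known counting error.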

Other observations

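The genes of the whole table whose profile over the 6 muscles was nearest to each called member were found by the root mean square difference of log2 values, each gene centred on its mean. With 6 muscles in 2 groups this measure is mostly set by the group difference, and it is given as a description. Nearest to Stat2 were Cd274, which encodes the checkpoint ligand PD-L1 (0.167), and the ADP-ribosyltransferase genes Parp14 (0.174) and Parp9 (0.179). Cd274 was at 7.14, 1.46 and 2.31 FPKM in control replicates 1, 2 and 3 and at 0.51, 0.47 and 0.17 FPKM in C26 muscles. Nearest to Irf9 were the RIG-I gene Ddx58 (0.106), Cyp4v3 (0.121) and Adap1 (0.124). Nearest to Irf7 were Isg15 (0.236), Gbp3 (0.317) and Oasl2 (0.355), all with their highest value in control replicate 1. Isg15 was at 71.17, 10.30 and 4.07 FPKM in control and 1.0, 0.37 and 0.85 FPKM in C26 muscles, the order of control muscles that Irf7 also had.

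Irf1 and Socs1 had other neighbours. Nearest to Irf1 were the tubulin gene Tuba1b (0.128), the cyclin gene Ccnd2 (0.181) and B2m, the light chain of MHC class I (0.203). Tuba1b was at 74.21, 37.27 and 78.60 FPKM in control and 9.67, 12.59 and 9.98 FPKM in C26 muscles. Nearest to Socs1 were Sp110 (0.133), Serpina1b (0.221) and Psmb8 (0.231), and Sp110 was at 12.64, 1.79 and 20.94 FPKM in control and at 0.54, 0.49 and 0.49 FPKM in C26 muscles. Serpina1b has close paralogs that could share its reads. Nearest to Irf2 were Dazap2 (0.0566), Pcf11 (0.0604) and Safb (0.0618). Pcf11 and Safb encode proteins of RNA processing and binding.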
